A study of Mus musculus with 2 samples.

Results

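Enterochromaffin cells, the serotonin-making enteroendocrine cells of the gut lining, were 439 of the 19406 cell barcodes in single-cell RNA libraries of mouse colonic crypts. The members were selected on measured counts. They were barcodes with at least 500 genes, under 25% mitochondrial UMIs, at least 5 UMIs of Chga, Chgb, Pcsk1n and Scgn together making at least 0.1% of their UMIs, and at least 2 UMIs of Tph1 and Tac1 together. Crypt cells came from C57BL/6 mice aged 4 weeks, and each genotype gave 1 10x Genomics library made from the pooled cells of 3 mice. The M14(f/f);Villin-Cre mice, called Villin-Cre here, carried floxed alleles of M14, read as Mettl14, and a Cre recombinase driven by the villin promoter in the gut epithelium. The M14(f/f) mice, called control, carried the floxed alleles without Cre, so both groups were floxed. The study's title concerns the role of RNA adenosine methylation in colonic stem cell survival and epithelial morphogenesis. Members numbered 290 in the Villin-Cre library and 149 in the control library, with a median of 3910 UMIs per Villin-Cre and 4525 UMIs per control barcode. Both libraries were analysed at the level of summed UMIs, with no replicate, so no difference between genotypes was tested.

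Enterochromaffin cells convert tryptophan to serotonin in steps run by tryptophan hydroxylase (Tph1) and aromatic amino acid decarboxylase (Ddc), and load it into dense-core granules through the vesicular monoamine transporter Slc18a1. They release it on chemical or mechanical stimulation onto nerve endings and neighbouring epithelium, where it acts on secretion, motility and sensation. Many of them also make substance P, cut from the product of Tac1, and in crypts of the mouse intestine they arise from Neurog3-expressing progenitors under Neurod1, Nkx2-2, Lmx1a and Fev.

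The Villin-Cre library held 89729527 UMIs in 9225 barcodes and the control library 111239295 UMIs in 10181 barcodes, and 7125 Villin-Cre and 9154 control barcodes passed the filter on genes and mitochondrial UMIs. Levels below are CPM, a gene's UMIs scaled by all UMIs of the barcodes summed, and ranges in parentheses are exact 95% intervals that cover counting error only. Mettl14, the floxed gene, had 14 UMIs in 14 Villin-Cre barcodes and 12 UMIs in 12 control barcodes among the members, or 7.93 CPM (Villin-Cre) and 7.82 CPM (control). The labels do not say which exons are floxed, and UMI counts per gene do not tell exons apart. Xist stood at 338 CPM in the whole Villin-Cre library, against 0.0629 CPM in the control library, so genotype and the sex of the pooled mice cannot be told apart. The libraries shared 33 barcode sequences, and 1 of them belonged to a member.

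The genes that chose the members are given as a description. Chgb, a granin of dense-core granules, had a UMI in all members, with 8, 119 and 2112 UMIs as the lowest, median and highest in Villin-Cre members and 6, 102 and 750 in control members. Chga, the granin chromogranin A, had medians of 35 UMIs in Villin-Cre and 43 UMIs in control members. Pcsk1n, an inhibitor of the prohormone convertase PCSK1, had a UMI in 62.8% of Villin-Cre and 89.3% of control members, and Scgn, a calcium-binding protein, in 9 Villin-Cre and 8 control members. Tph1, at chr7:46644641-46672537 on the minus strand (GRCm38), had a UMI in 98.6% of Villin-Cre and 98.0% of control members. Tac1, at chr6:7554879-7565834 on the plus strand, had one in 54.1% (48.2 to 60.0) of Villin-Cre and 82.6% (75.5 to 88.3) of control members. Both genes were found together in 153 Villin-Cre and 120 control members, Tph1 alone in 133 Villin-Cre and 26 control members, and Tac1 alone in 4 Villin-Cre and 3 control members. Tac1 was thus the rarer gene of the pair, and more so in the Villin-Cre library. Among 94 Villin-Cre and 62 control barcodes of T or NK cells, which should lack both genes, no UMI of either was found.

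The label could be checked on genes that the rule did not use. Slc18a1 was counted at 214 CPM in Villin-Cre and 98.3 CPM in control barcodes among members, against 1.97 CPM (Villin-Cre) and 0.844 CPM (control) in other epithelial barcodes. Ddc was counted at 526 CPM in Villin-Cre and 411 CPM in control barcodes, against 10.6 CPM (Villin-Cre) and 23.6 CPM (control) in other epithelial barcodes. Lmx1a, a homeobox factor of enterochromaffin cells, stood at 71.4 CPM in Villin-Cre and 33.2 CPM in control barcodes and Fev, an ETS-family factor of serotonin cells, at 87.8 CPM in Villin-Cre and 75.5 CPM in control barcodes. Each was under 0.2 CPM in the other epithelial barcodes of both libraries. Of 14 enterochromaffin markers considered, 13 had a UMI among members. These 14 included the rule genes Chga, Tph1 and Tac1, and a single UMI sufficed, so the count is a description only. Trpa1, the irritant channel described in enterochromaffin cells of the mouse small intestine, had none, and Afp had 1 UMI in Villin-Cre and 2 UMIs in control members. Slc6a4, the serotonin reuptake transporter, had 1 UMI in all, and Tph2, the neuronal tryptophan hydroxylase, had none. The label therefore held against other epithelial barcodes on Slc18a1, Ddc, Lmx1a and Fev.

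Members differed with sequencing depth, and the deep members of the control library had higher levels of goblet cell genes. The summed share of the 4 granule genes that chose them was 5.14% of a barcode's UMIs at the median in the 243 Villin-Cre and 6.69% in the 98 control members under 8000 UMIs. In members of at least 8000 UMIs the medians were 2.04% in 47 Villin-Cre and 0.618% in 51 control barcodes. Tph1 stood at 968 CPM in Villin-Cre and 1080 CPM in control members of at least 16000 UMIs, against 3517 CPM in Villin-Cre and 8727 CPM in control members from 2000 to 4000 UMIs. Between 8000 and 16000 UMIs it was 5346 CPM in 25 Villin-Cre and 1630 CPM in 18 control members, so the levels dropped at a lower depth in the control library. The 13 goblet cell genes summed to 20031 CPM in Villin-Cre and 23288 CPM in control members of at least 8000 UMIs, against 1594 CPM (Villin-Cre) and 5600 CPM (control) in those under 8000. The median barcode had 741 CPM (Villin-Cre) and 15958 CPM (control) of them among deep members, against 1332 CPM (Villin-Cre) and 3123 CPM (control) under 8000 UMIs, so in the Villin-Cre library a minority of deep barcodes carried the higher sum. The 12 colonocyte genes summed to 318 CPM (Villin-Cre) and 7540 CPM (control) in deep members, against 927 CPM (Villin-Cre) and 2427 CPM (control) in the others, while the median barcode had 195 CPM (Villin-Cre) and 543 CPM (control) of them in deep members and 666 CPM (Villin-Cre) and 2133 CPM (control) in the others. The higher colonocyte sum of the deep control members thus came from a minority of barcodes too. The 20 cell cycle genes summed to 1255 CPM (Villin-Cre) and 2973 CPM (control) in the deep members, against 362 CPM (Villin-Cre) and 896 CPM (control) in the others. Of the peptide hormone gene Pyy, deep members had 7407 CPM (Villin-Cre) and 3442 CPM (control), but 3 Villin-Cre barcodes held over 90% of the Villin-Cre UMIs and 1 control barcode held 99.5% of the control UMIs. Median Scrublet scores, which rise with the likeness of a barcode to simulated doublets, were 0.0824 in Villin-Cre and 0.123 in control deep members, against 0.0249 in Villin-Cre and 0.0481 in control members under 8000 UMIs. The deep members made up 16.2% of Villin-Cre and 34.2% of control members. They held 49.2% of the Villin-Cre members' UMIs and 78.3% of the control members' UMIs, so the sums over all members compare libraries with unequal shares of such barcodes. Comparisons between libraries are therefore given both over all members and for members under 8000 UMIs. This limit of 8000 was chosen after the values were seen, and the part of the deep members in each result was not tested.

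**Figure D1:**
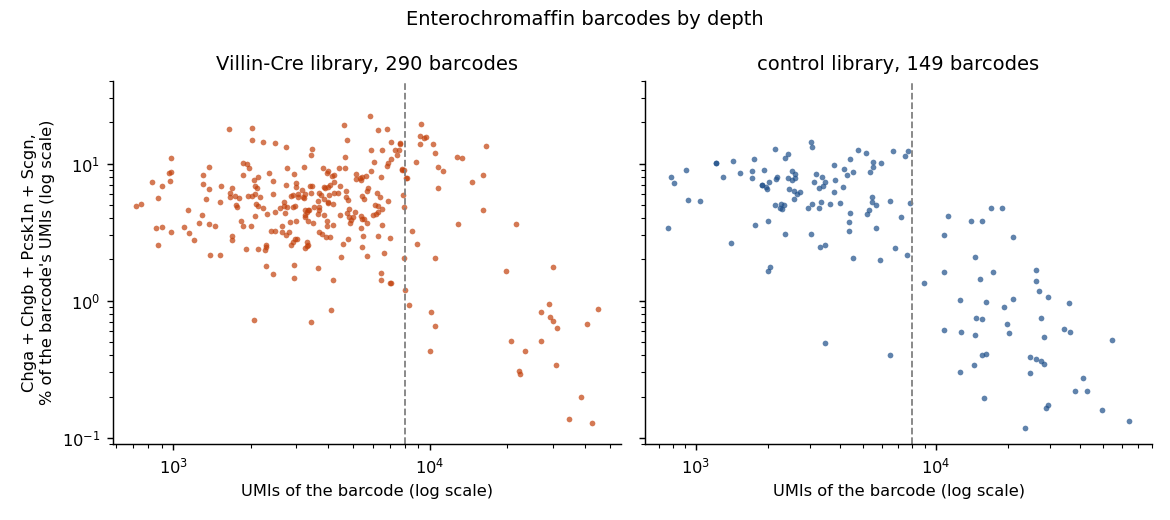
Share of UMIs from Chga, Chgb, Pcsk1n and Scgn against total UMIs, both on log scales, for the 290 Villin-Cre members (left) and 149 control members (right), with a dashed line at 8000 UMIs. Barcodes left of the line gather around the medians of 5.14% (Villin-Cre) and 6.69% (control), and those right of it reach down to about 0.1%, which is the limit of the rule.

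Few barcodes lay just inside or just outside the cut at 2 UMIs of Tph1 and Tac1. The 23 Villin-Cre and 3 control members with exactly 2 such UMIs had 23326 CPM (Villin-Cre) and 39.0 CPM (control) of Pyy, the peptide YY gene, and 109.7 CPM (Villin-Cre) and 0 CPM (control) of Slc18a1. The 17 Villin-Cre and 9 control enteroendocrine barcodes with 1 such UMI, which were not members, had 9463 CPM (Villin-Cre) and 77692 CPM (control) of Pyy, and 161 CPM (Villin-Cre) and 72.1 CPM (control) of Slc18a1. These levels rested on few barcodes. Of the Pyy UMIs of the Villin-Cre members with exactly 2 such UMIs, 1 barcode held 99.7%, and without it the level was 74.3 CPM. Among the barcodes with 1 such UMI, 1 of the 17 in the Villin-Cre library and 3 of the 9 in the control library held at least 90% of the Pyy UMIs. Barcodes with 1 such UMI were set aside, and the 92 Villin-Cre and 51 control enteroendocrine barcodes with none served as the other enteroendocrine cells.

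Members made up a larger share of the Villin-Cre epithelium. They were 4.80% (4.27 to 5.37) of 6046 Villin-Cre epithelial barcodes, against 1.69% (1.43 to 1.98) of 8820 control epithelial barcodes. Other enteroendocrine cells were 1.52% (1.23 to 1.86) of the Villin-Cre and 0.578% (0.431 to 0.760) of the control epithelial barcodes. Within the enteroendocrine barcodes the members' share was close in the 2 libraries, at 72.7% (68.0 to 77.0) of 399 Villin-Cre and 71.3% (64.6 to 77.3) of 209 control barcodes. Without the members of at least 8000 UMIs, members were 4.07% of Villin-Cre and 1.12% of control epithelial barcodes. The limit was applied to enteroendocrine barcodes alone, and other epithelial barcodes of any depth stayed in the total. Shares of barcodes depend on which cells were recovered from each pool, and more enterochromaffin cells and fewer other epithelial cells cannot be told apart.

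Beside the other enteroendocrine cells, members carried amine genes and some of the sensory genes and had low levels of most peptide hormones. At least 4-fold higher in members in both libraries were 24 of 3466 genes, or 0.692%, and 30 genes, or 0.866%, were at least 4-fold lower. With members and other enteroendocrine barcodes under 8000 UMIs the counts were 49 of 4035 genes (1.21%) and 29 genes (0.719%). These are descriptions, since the rule separated the same barcodes. Log2 ratios are of all members over all other enteroendocrine barcodes of the same library unless said otherwise. Slc18a1 had log2 ratios of 3.81 (Villin-Cre) and 4.04 (control). Npy1r, a receptor for neuropeptide Y and peptide YY, had 5.22 (Villin-Cre) and 3.88 (control). Olfr78, an olfactory receptor for short-chain acids, had 3.53 (Villin-Cre) and 5.80 (control). Piezo2, a mechanically gated cation channel, had 1.95 (Villin-Cre) and 4.92 (control). Amine storage and sensing of neuropeptides, acids and stretch were thus among the functions of the leading genes. Wif1, a secreted Wnt inhibitor, had 3.65 (Villin-Cre) and 6.21 (control), and Slc38a11, an amino acid transporter family member, 2.40 (Villin-Cre) and 6.03 (control). Prlr, the prolactin receptor, had 5.69 (Villin-Cre) and 2.50 (control), and Hspb1, a small heat shock protein, 6.23 (Villin-Cre) and 4.06 (control). Gsdma, a gasdermin, had 2.32 (Villin-Cre) and 4.65 (control). Retnlb, a goblet cell product, also ranked among the highest over all members, with 4.44 (Villin-Cre) and 2.84 (control), but had 0.21 (Villin-Cre) and 0.40 (control) under 8000 UMIs. Plet1, Lmx1a, Stk32a, Fabp3 and Tpsg1 completed the 15 highest. Under 8000 UMIs the 15 highest also held Lmo1, a LIM-only transcriptional cofactor, Agr3, a disulfide isomerase, Psat1, an enzyme of serine synthesis, and Olfr558, none of which had a UMI in other enteroendocrine barcodes under 8000 UMIs. Apoa1, an apolipoprotein, had none there either, at 65.8 CPM (Villin-Cre) and 60.1 CPM (control) in members.

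The genes lowest in members were hormones and factors of the other lineages. Gcg, which encodes glucagon-like peptides, had log2 ratios of -8.26 (Villin-Cre) and -9.44 (control). Nts (neurotensin) had -8.78 (Villin-Cre) and -9.51 (control), Insl5 (insulin-like peptide 5) -9.29 (Villin-Cre) and -5.36 (control), and Ghrl (ghrelin) -2.43 (Villin-Cre) and -8.95 (control). Pyy (peptide YY) had -5.33 (Villin-Cre) and -5.18 (control) and Cck (cholecystokinin) -3.69 (Villin-Cre) and -6.55 (control). Isl1, a LIM-homeobox factor, had -3.49 (Villin-Cre) and -7.97 (control). The gap held for peptide hormones of several lineages in both libraries. Some hormone UMIs among all members came from few barcodes. A single Villin-Cre member held the 561 UMIs of Sst (somatostatin), and Sst had no UMI among members under 8000 UMIs in either library.

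Genes of granules, vesicles and neurons were among those that set the members apart from other epithelial barcodes. The 15 highest by the mean log2 ratio over other epithelial barcodes were led by Resp18, a dense-core granule protein, with 8.37 (Villin-Cre) and 7.89 (control). Rab3c, a small GTPase of vesicle release, had 7.93 (Villin-Cre) and 7.16 (control). The list went on with Neurod1, Cpe, Map1b, Wif1, Insm1, Scn3a, Scg5, Iapp, Slc38a11, Fam183b, Fev, Nefm and Cryba2. Of these, Wif1 and Slc38a11 were also among the 15 highest over other enteroendocrine barcodes. Map1b (a microtubule-associated protein) and Nefm (a neurofilament) are best known in neurons, and had 7.21 (Villin-Cre) and 6.25 (control) and 7.27 (Villin-Cre) and 5.03 (control).

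Shares of barcodes with a UMI were compared after each barcode was thinned to 2000 UMIs, which kept 195 Villin-Cre and 76 control members under 8000 UMIs, and 71 Villin-Cre and 48 control other enteroendocrine barcodes. Below that depth 48 Villin-Cre and 22 control members were left out. Ddc was found in 69.2% (Villin-Cre) and 81.6% (control) of members, against 26.8% (Villin-Cre) and 41.7% (control) of other enteroendocrine barcodes. Slc18a1 was found in 40.5% (Villin-Cre) and 44.7% (control) of members, against 4.23% (Villin-Cre) and 0% (control) of other enteroendocrine barcodes. Of these, Slc18a1 separated the classes more sharply. Lmx1a was found in 25.6% (Villin-Cre) and 21.1% (control) of members and 0% (Villin-Cre) and 4.17% (control) of other enteroendocrine barcodes. Fev was found in 19.0% (Villin-Cre) and 35.5% (control) of members and 21.1% (Villin-Cre) and 16.7% (control) of other enteroendocrine barcodes. In the Villin-Cre library Fev thus did not separate the classes. Some sensor genes were not found mainly in members. Gpbar1 was found in no member, and in 1.41% (Villin-Cre) and 16.7% (control) of other enteroendocrine barcodes. Gpr119 was found in no member, and in 1.41% (Villin-Cre) and 14.6% (control) of the others. Ffar2 was found in 51.8% (Villin-Cre) and 27.6% (control) of members and 25.4% (Villin-Cre) and 33.3% (control) of the others. Pyy was found in 8.72% of Villin-Cre and 9.21% of control members. In the 53 Villin-Cre and 19 control thinned T or NK barcodes its shares were 9.43% (Villin-Cre) and 10.5% (control). Whether the Pyy UMIs of members were background was not tested. Sct, which encodes secretin, was shared by both classes, in 40.5% (Villin-Cre) and 48.7% (control) of members and 49.3% (Villin-Cre) and 66.7% (control) of other enteroendocrine barcodes, with none in the T or NK barcodes, which allows a share of up to 5.66% (Villin-Cre) and 15.8% (control).

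**Figure D2:**
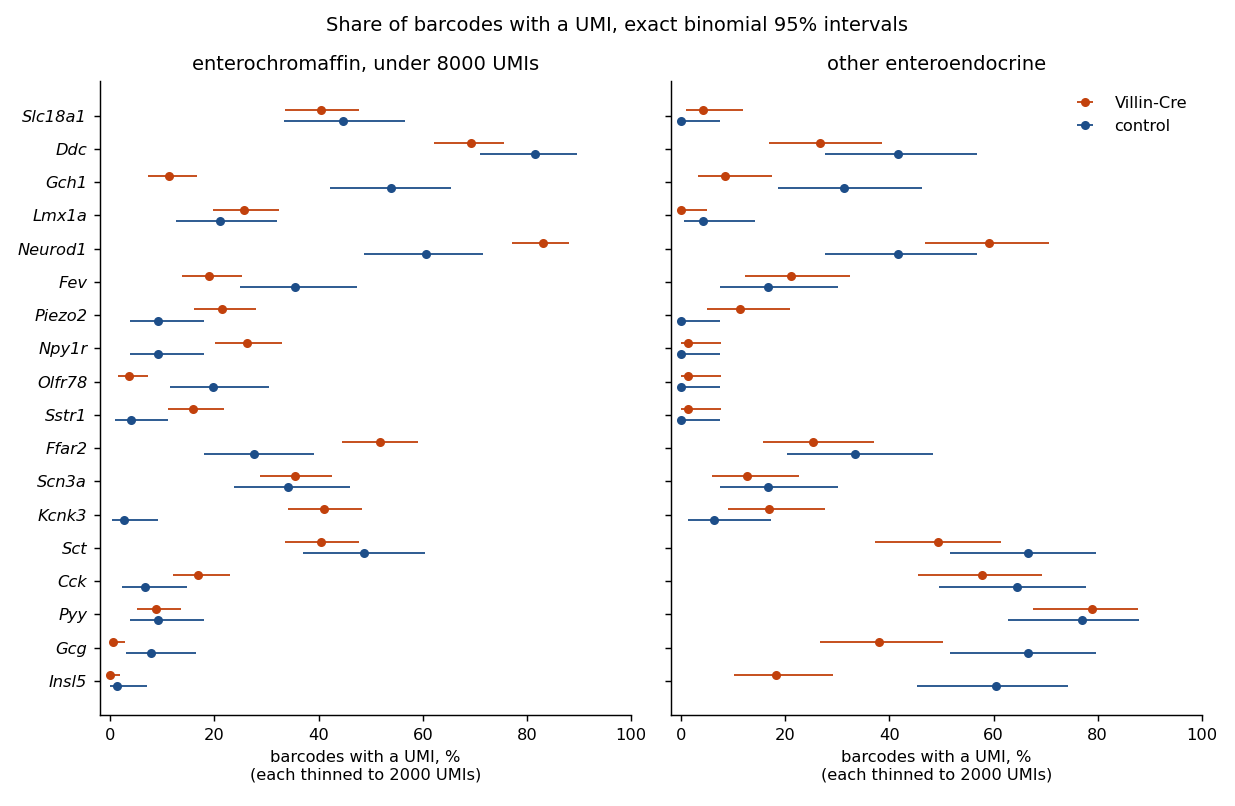
Percentage of barcodes with a UMI of each gene after thinning to 2000 UMIs, in enterochromaffin barcodes under 8000 UMIs (left) and other enteroendocrine barcodes (right), with Villin-Cre in orange above control in blue and bars for exact binomial 95% intervals. Slc18a1, Lmx1a, Npy1r and Olfr78 are mostly found in members, and Pyy, Gcg and Insl5 in the others. Within members, Gch1, Neurod1, Kcnk3, Npy1r and Ffar2 are among the genes whose intervals do not overlap between libraries.

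Between genotypes, 363 of 3182 genes (11.4%) were at least 2-fold higher and 188 genes (5.91%) at least 2-fold lower in Villin-Cre over all members. Under 8000 UMIs 361 of 3615 genes (9.99%) were higher and 206 genes (5.7%) lower, and 184 of the higher and 78 of the lower genes were shared by the 2 sets of members. The shares in parentheses are the background for the counts over gene lists below. The median log2 ratio of all genes was 0.09 over all members and 0.06 under 8000 UMIs. Higher and lower mean at least 2-fold in what follows wherever genes of a list are counted.

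Some sums of genes of other cell types also differed between the libraries. The 13 goblet genes summed to 1594 CPM (Villin-Cre) and 5600 CPM (control) in members under 8000 UMIs, and to 1145 CPM (Villin-Cre) and 4004 CPM (control) in T or NK barcodes of the same libraries. Of these 13 genes, 7 could be compared under 8000 UMIs, with Tff3 higher and Muc2, Agr2, Mptx1 and Spink4 lower. The 12 colonocyte genes summed to 927 CPM (Villin-Cre) and 2427 CPM (control) in members, and to 79.7 CPM (Villin-Cre) and 1771 CPM (control) in T or NK barcodes, and Car1 was lower. The 20 immune genes summed to 496 CPM (Villin-Cre) and 147 CPM (control) in members, with Lyz2 and Gzmb at 0 in both libraries. The median barcode had 0 CPM of the immune genes in both libraries, and the highest had 44082 CPM (Villin-Cre) and 7622 CPM (control). For 2 of these genes, at 206 CPM and 211 CPM in Villin-Cre and 0 CPM in control members, 2 barcodes each held at least 90% of the Villin-Cre UMIs. A minority of barcodes thus carried the immune sums. The 11 tuft cell genes summed to 35.7 CPM (Villin-Cre) and 57.1 CPM (control), and 5 of the 13 stromal, glial and neuronal genes had a UMI. The part of these genes in the results was not tested.

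Over all members the largest ratios rested partly on single or deep barcodes. Sst led the 15 higher genes through 1 Villin-Cre barcode. Akr1c21, an aldo-keto reductase, had 102 UMIs in 16 Villin-Cre barcodes and no UMI in control barcodes, with 43.1% of them in 1 barcode. Kcnk3, Spink1, Spon2, Slpi, Cck, Gsdma and Amotl1, described below, were among the 15 as well, with Cldn14, Eid2b, Chpf, Megf9, Arhgap8 and Gdpd5. Of the 15 lower genes, 3 were on the colonocyte list (Car1, Sult1a1 and Cyp2c55), 1 on the goblet list (Mptx1) and 1 on the cell cycle list (Ccna2). Car1 had 291 UMIs in 74 Villin-Cre barcodes and 8677 UMIs in 146 control barcodes, Mptx1 7 UMIs in 3 Villin-Cre barcodes and 762 UMIs in 45 control barcodes, and Hao2, a hydroxyacid oxidase, 2 UMIs in 2 Villin-Cre barcodes and 181 UMIs in 40 control barcodes. Sult1a1, Gsdmc4, Pclaf, Cxcl2, Gm5485, S100g, Ccna2, Lmo1, 1810065E05Rik, Cyp2c55, Selenbp1 and Insl5 completed the list. Of these, Lmo1 was the gene with the higher level in members than in other epithelial barcodes of the control library at both depths.

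Tph1, Tac1 and Sct were lower in Villin-Cre members. Tph1 was counted at 3615 CPM (3491 to 3741) in the Villin-Cre library, against 8797 CPM (8481 to 9121) in the control library, in members under 8000 UMIs, which was 2.43-fold lower (2.31 to 2.56). The lowest, median and highest barcodes had 0, 2915 and 15593 CPM in Villin-Cre barcodes, and 0, 5721 and 38411 CPM in control barcodes. The libraries overlapped widely, with the control library reaching higher. Over all members Tph1 stood at 2941 CPM (Villin-Cre) and 2838 CPM (control), with no such difference in the sums, but the mean of the per-barcode levels was 3625 CPM in Villin-Cre and 6355 CPM in control barcodes. Tac1 was counted at 664 CPM (611 to 719) in the Villin-Cre library, against 2379 CPM (2216 to 2551) in the control library, which was 3.58-fold lower (3.22 to 3.99). Its barcodes ran over 0, 185 and 4859 CPM in Villin-Cre barcodes, and 0, 1559 and 9471 CPM in control barcodes. After thinning a Tac1 UMI was found in 46.7% of Villin-Cre barcodes (39.5 to 53.9) and 80.3% of control barcodes (69.5 to 88.5). Because Tph1 and Tac1 also chose the members, their levels are a description. Sct, which the rule did not use, at chr7:141278330-141279133 on the minus strand, was counted at 1491 CPM (1412 to 1573) in the Villin-Cre library, against 6866 CPM (6587 to 7153) in the control library, which was 4.60-fold lower (4.30 to 4.93). Its barcodes ran over 0, 219 and 105399 CPM in Villin-Cre barcodes, and 0, 459 and 111074 CPM in control barcodes. It was spread unevenly, and 1 barcode held 30.5% of the Villin-Cre and 1 barcode 14.8% of the control Sct UMIs. The thinned shares with Sct, 40.5% of Villin-Cre barcodes (33.6 to 47.8) and 48.7% of control barcodes (37.0 to 60.4), had intervals that overlapped. Over all members Sct stood at 979 CPM (Villin-Cre) and 1775 CPM (control).

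The rest of the serotonin pathway did not move as a block. Of 9 pathway genes with enough UMIs to be compared under 8000 UMIs, none was at least 2-fold higher and Gch1 and Qdpr were at least 2-fold lower, with a median log2 ratio of -0.42. Both make or recycle tetrahydrobiopterin, the cofactor of tryptophan hydroxylase. Gch1, the GTP cyclohydrolase at the entry to its synthesis, was counted at 63.6 CPM (48.1 to 82.4) in the Villin-Cre library, against 460.1 CPM (390.1 to 539) in the control library, which was 7.24-fold lower (5.31 to 9.99). It was found in 11.3% of Villin-Cre barcodes (7.21 to 16.6) and 53.9% of control barcodes (42.1 to 65.5) after thinning, against 6.44% (Villin-Cre) and 6.56% (control) of other epithelial barcodes and 26.4% (Villin-Cre) and 15.8% (control) of T or NK barcodes. The lower share was not particular to members. In other enteroendocrine barcodes Gch1 was found in 8.45% (3.16 to 17.5) in Villin-Cre and 31.25% (18.7 to 46.3) in control. Qdpr, the pteridine reductase that recycles the cofactor, stood at 199.6 CPM in Villin-Cre and 466 CPM in control barcodes, or 2.33-fold lower (1.87 to 2.91). Pts, another enzyme of cofactor synthesis, stood at 123 CPM (Villin-Cre) and 171 CPM (control), and Spr at 108 CPM (Villin-Cre) and 93.2 CPM (control). Ddc was counted at 697 CPM in the Villin-Cre library and 1098 CPM in the control library, 1.57-fold lower (1.38 to 1.79). Slc18a1 was at 313 CPM (Villin-Cre) and 334 CPM (control), and the interval of the fold, 0.847 to 1.33 lower, includes 1. Of the cofactor genes, Gch1 and Qdpr were thus lower, while Pts and Spr did not pass 2-fold. Maoa, which degrades serotonin, had 20 UMIs in 20 Villin-Cre barcodes and 14 UMIs in 7 control barcodes, or 22.3 CPM (Villin-Cre) and 42.1 CPM (control). Over all members 1 of 11 pathway genes was higher (Slc18a1) and 2 were lower (Gch1 and Maoa). There Gch1 stood at 68.5 CPM (Villin-Cre) and 143 CPM (control), Qdpr at 189.8 CPM (Villin-Cre) and 197 CPM (control) and Slc18a1 at 214 CPM (Villin-Cre) and 98.3 CPM (control).

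**Figure D3:**
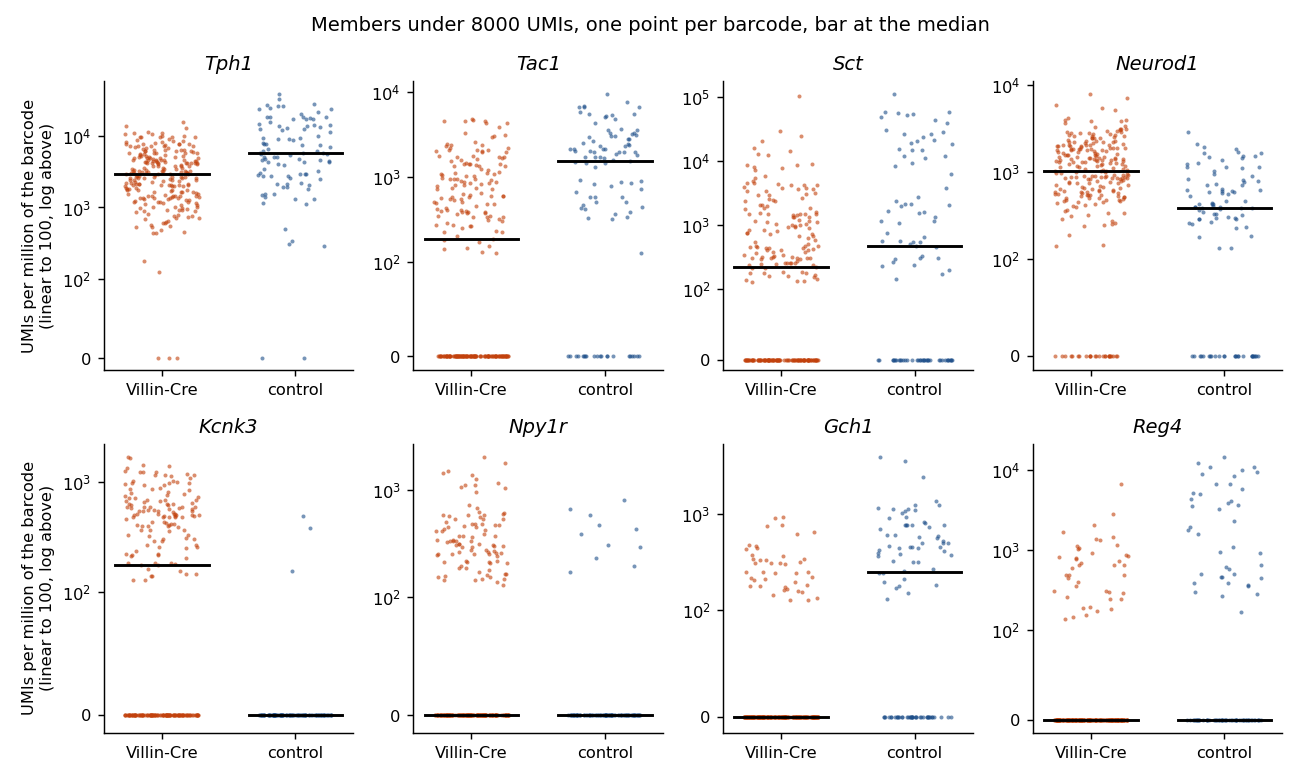
CPM of each barcode for 8 genes in the 243 Villin-Cre (left, orange) and 98 control (right, blue) members under 8000 UMIs, on an axis that is linear to 100 and logarithmic above, with a bar at the median. Median Tph1 was 2915 CPM (Villin-Cre) and 5721 CPM (control) and median Neurod1 1021 CPM (Villin-Cre) and 385 CPM (control), and the points of the libraries overlap for each gene.

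Among transcription factors of the lineage, Neurod1 was higher in Villin-Cre members and 3 others were lower. Of 16 factors compared under 8000 UMIs, 1 was at least 2-fold higher and 3 were at least 2-fold lower, with a median log2 ratio of -0.18. Neurod1, a basic helix-loop-helix factor of enteroendocrine maturation, was counted at 1191 CPM (1121 to 1265) in the Villin-Cre library, against 496 CPM (423 to 578) in the control library, which was 2.40-fold higher (2.04 to 2.85). Its barcodes ran over 0, 1021 and 7778 CPM in Villin-Cre barcodes, and 0, 385 and 2896 CPM in control barcodes. Thinned shares were 83.1% of Villin-Cre barcodes (77.1 to 88.1) and 60.5% of control barcodes (48.6 to 71.6), and their intervals did not overlap. Pax4, a paired-homeobox factor, had 4 UMIs in 4 Villin-Cre barcodes and 29 UMIs in 20 control barcodes, 19.5-fold lower (6.86 to 76.5). Mnx1, a homeobox factor, had 4 UMIs in 4 Villin-Cre barcodes and 17 UMIs in 14 control barcodes, 11.5-fold lower (3.74 to 46.8), and Egr3, a zinc-finger factor, 22 UMIs in 16 Villin-Cre barcodes and 17 UMIs in 13 control barcodes, 2.08-fold lower (1.04 to 4.11). Insm1 stood at 407 CPM (Villin-Cre) and 442 CPM (control), Nkx2-2 at 130.5 CPM (Villin-Cre) and 180.4 CPM (control), Lmx1a at 118 CPM (Villin-Cre) and 111 CPM (control) and Fev at 144 CPM (Villin-Cre) and 211 CPM (control). These 4 factors of the lineage did not pass 2-fold. Neurog3, the factor that starts the lineage, had 6 UMIs in 1 Villin-Cre barcode and 3 UMIs in 3 control barcodes. Over all members 5 of 10 factors compared were at least 2-fold higher (Neurod1, Insm1, Lmx1a, Foxa1 and Sox4) and none was lower. Those sums held the deep control barcodes with their low share of granule RNA.

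The granule proteins showed the same dependence on depth. Over all members 8 of 11 granin and prohormone-processing genes compared were at least 2-fold higher in Villin-Cre and none lower, but under 8000 UMIs 1 of 12 was higher and 1 lower, with a median log2 ratio of 0.07. Chgb stood at 47083 CPM (Villin-Cre) and 43790 CPM (control) and Chga at 12998 CPM (Villin-Cre) and 19524 CPM (control) in members under 8000 UMIs, as rule genes outside these counts. Pcsk1, the convertase that cuts prohormones, stood at 202 CPM (Villin-Cre) and 201 CPM (control) and Cpe, the carboxypeptidase that trims the cut peptides, at 669 CPM (Villin-Cre) and 653 CPM (control). Scg2, the granin secretogranin II, was the higher gene, with 64 UMIs in 22 Villin-Cre barcodes and no UMI in control barcodes, at least 7.91-fold higher if 3 UMIs per library are taken as the floor. Over all members 1 control barcode held all 20 Scg2 UMIs of that library. Resp18, a protein of dense-core granules, was the lower one, at 610.1 CPM (560.0 to 663) in the Villin-Cre library, against 1432 CPM (1306 to 1566) in the control library, 2.35-fold lower (2.07 to 2.66). The convertase Pcsk2 had no UMI.

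Receptors for peptides and acids differed in both directions. Of 8 sensor genes compared under 8000 UMIs, 4 were at least 2-fold higher and 2 lower in Villin-Cre members. Npy1r was counted at 149 CPM (125 to 177) in the Villin-Cre library, against 39.1 CPM (20.8 to 66.9) in the control library, 3.82-fold higher (2.16 to 7.37). It was found in 26.2% of Villin-Cre barcodes (20.1 to 32.9) and 9.21% of control barcodes (3.78 to 18.1) after thinning, and most barcodes of both libraries thus had none. Piezo2 was counted at 173 CPM in the Villin-Cre library and 63.2 CPM in the control library, 2.74-fold higher (1.73 to 4.55), and found in 21.5% of Villin-Cre and 9.21% of control barcodes. Sstr1, a somatostatin receptor, had 70 UMIs in 51 Villin-Cre barcodes and 9 UMIs in 9 control barcodes, 2.88-fold higher (1.44 to 6.57). Ffar2, a receptor for short-chain fatty acids, was at 434 CPM in Villin-Cre and 183 CPM in control barcodes, 2.37-fold higher (1.80 to 3.15), and was found in 51.8% (Villin-Cre) and 27.6% (control) of members and 14.3% (Villin-Cre) and 13.6% (control) of other epithelial barcodes. Olfr78 and Olfr558, both olfactory receptors, went the other way. Olfr78 had 22 UMIs in 19 Villin-Cre barcodes and 48 UMIs in 24 control barcodes, 5.88-fold lower (3.48 to 10.2), and Olfr558, a receptor for branched short-chain acids, 20 UMIs in 12 Villin-Cre barcodes and 23 UMIs in 18 control barcodes, or 22.3 CPM (Villin-Cre) and 69.2 CPM (control). Over all members 3 of 6 sensor genes compared were higher (Piezo2, Ffar2 and Npy1r) and none lower. There Olfr78 stood at 27.2 CPM (Villin-Cre) and 54.7 CPM (control), a smaller gap than under 8000 UMIs.

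Of 8 ion channel genes compared, Kcnk3 alone passed 2-fold, and it was higher. Kcnk3, a leak potassium channel closed by acid, had 251 UMIs in 130 Villin-Cre barcodes and 3 UMIs in 3 control barcodes, or 279.9 CPM (Villin-Cre) and 9.02 CPM (control), 31.0-fold higher (10.5 to 151). Barcodes with Kcnk3 were common in the Villin-Cre library and rare in the control library. After thinning it was found in 41.0% of Villin-Cre barcodes (34.0 to 48.3) and 2.63% of control barcodes (0.320 to 9.18). In other epithelial barcodes it stood at 0.580 CPM (Villin-Cre) and 0.186 CPM (control), and in other enteroendocrine barcodes at 100.4 CPM (Villin-Cre) and 22.7 CPM (control). The voltage-gated sodium channel Scn3a stood at 219.7 CPM (Villin-Cre) and 208 CPM (control) and the calcium channel Cacna1h at 93.7 CPM (Villin-Cre) and 87.2 CPM (control), and the intervals of both folds include 1. Over all members Kcnk3, Kcnb2, Cacna1h and Cacna2d1 were higher, of 7 compared. Of 18 vesicle exocytosis genes under 8000 UMIs, Syt7, a calcium sensor of granule fusion, was higher at 453 CPM in Villin-Cre and 135 CPM in control barcodes, 3.35-fold higher (2.46 to 4.66). Vamp3, a vesicle SNARE, was lower at 58.0 CPM (Villin-Cre) and 117 CPM (control), 2.02-fold lower (1.30 to 3.12). Over all members 5 of 14 compared were higher, among them Snap25, Syt7, Syt13 and Rab3a, and none lower.

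Peptide hormone genes split by gene. Of 7 compared under 8000 UMIs, 3 were higher (Cck, Pyy and Ghrl) and 3 lower (Sct, Iapp and Guca2a). Cck had 162 UMIs in 56 Villin-Cre barcodes and 17 UMIs in 9 control barcodes, 3.53-fold higher (2.14 to 6.22), and was found in 16.9% of Villin-Cre barcodes (11.9 to 22.9) and 6.58% of control barcodes (2.17 to 14.7) after thinning, with none in the T or NK barcodes. Pyy had 341 UMIs in 34 Villin-Cre barcodes and 31 UMIs in 13 control barcodes, but 1 barcode held 84.2% of the Villin-Cre UMIs. Without that barcode, a check added after the values were seen, Pyy stood at 60.6 CPM (Villin-Cre) and 93.2 CPM (control), so its direction turned. Ghrl had 47 UMIs in 18 Villin-Cre barcodes and 5 UMIs in 4 control barcodes, 3.49-fold higher (1.39 to 11.2), but its shares after thinning were 4.10% (Villin-Cre) and 3.95% (control). Iapp, the amylin gene, had 59 UMIs in 9 Villin-Cre barcodes and 270 UMIs in 23 control barcodes, 12.3-fold lower (9.28 to 16.6), and was found in 2.56% of Villin-Cre barcodes (0.838 to 5.88) and 18.4% of control barcodes (10.5 to 29.0). Without the barcode richest in Iapp of each library it stood at 19.1 CPM (Villin-Cre) and 533 CPM (control). Guca2a, a goblet and colonocyte peptide, had 40.2 CPM (Villin-Cre) and 156 CPM (control) in members and 143 CPM (Villin-Cre) and 569 CPM (control) in other epithelial barcodes. Over all members 2 of 9 were higher (Cck and Sst) and 3 lower (Insl5, Iapp and Guca2a). Insl5 there rested on 3 control members, and had 2 UMIs in 2 Villin-Cre barcodes and 1 UMI in 1 control barcode under 8000 UMIs.

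Reg4, a secreted lectin made by enteroendocrine and deep crypt secretory cells, was lower as well. It was counted at 184 CPM (157 to 214) in the Villin-Cre library, against 2012 CPM (1862 to 2170) in the control library, 10.9-fold lower (9.21 to 13.0), and found in 15.9% of Villin-Cre barcodes (11.1 to 21.8) and 36.8% of control barcodes (26.1 to 48.7) after thinning. In other epithelial barcodes it stood at 258 CPM (Villin-Cre) and 464 CPM (control). Gsdma was higher, at 377 CPM (338 to 419) in the Villin-Cre library, against 84.2 CPM (56.0 to 122) in the control library, 4.48-fold higher (3.04 to 6.84), and stood at 0.185 CPM (Villin-Cre) and 0.0278 CPM (control) in other epithelial barcodes. Gsdmc4, of the gasdermin C family, had no UMI in Villin-Cre barcodes and 11 UMIs in 10 control barcodes, at least 9.89-fold lower if 3 UMIs are taken as the floor. In other epithelial barcodes Gsdmc4 stood at 11.8 CPM (Villin-Cre) and 241 CPM (control) and in T or NK barcodes at 0 CPM (Villin-Cre) and 23.5 CPM (control).

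The genes with the highest ratios under 8000 UMIs were led by secreted proteins. Spink1, a trypsin inhibitor, had 1674 UMIs in 182 Villin-Cre barcodes and 4 UMIs in 4 control barcodes, 155-fold higher (60.5 to 570.3). Slpi, a leukocyte protease inhibitor, had 511 UMIs in 48 Villin-Cre barcodes and 1 UMI in 1 control barcode, 189.5-fold higher (33.9 to 7500), and 1 barcode held 46.8% of the Villin-Cre UMIs. Both were also higher in other epithelial barcodes, at 6927 CPM (Villin-Cre) and 227 CPM (control) for Spink1 and 945 CPM (Villin-Cre) and 12.2 CPM (control) for Slpi, and in T or NK barcodes Spink1 stood at 338 CPM (Villin-Cre) and 31.3 CPM (control). Igfals, the acid-labile subunit of the circulating IGF complex, had 57 UMIs in 43 Villin-Cre barcodes and no UMI in control barcodes, at least 7.05-fold higher, and stood at 46.5 CPM (Villin-Cre) and 0.965 CPM (control) in other epithelial barcodes. These 3 genes thus had higher Villin-Cre levels in the surrounding epithelium as well, unlike Igf1r, Abcc3 and Slc39a8. Igf1r, the IGF-1 receptor, stood at 115 CPM in Villin-Cre and 12.0 CPM in control barcodes, 9.55-fold higher (3.62 to 35.7), and at 10.2 CPM (Villin-Cre) and 9.61 CPM (control) in other epithelial barcodes. Abcc3, an exporter of organic anions, had 213 UMIs in 118 Villin-Cre barcodes and 3 UMIs in 2 control barcodes, 26.3-fold higher (8.89 to 129), and stood at 35.3 CPM (Villin-Cre) and 33.2 CPM (control) in other epithelial barcodes. Slc39a8, a zinc and manganese importer, had 49 UMIs in 37 Villin-Cre barcodes and no UMI in control barcodes, at least 6.06-fold higher, and stood at 19.9 CPM (Villin-Cre) and 23.3 CPM (control). Hpx, the haem-binding hemopexin, had 67 UMIs in 39 Villin-Cre barcodes and 1 UMI in 1 control barcode, 24.8-fold higher (4.31 to 996). Spon2, a secreted matrix protein, had 116 UMIs in 81 Villin-Cre barcodes and 2 UMIs in 2 control barcodes, 21.5-fold higher (5.82 to 179.7). Kcnk3 and Scg2 belonged to the 15 highest, and Clu (clusterin), Mier3, Fbxo36, Ahdc1 and Amotl1 completed them, from 7.97-fold higher for Amotl1 to 14.6-fold higher for Mier3.

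The genes with the lowest ratios held both enterochromaffin genes and genes of the surrounding epithelium. Lmo1 had 3 UMIs in 3 Villin-Cre barcodes and 41 UMIs in 26 control barcodes, 36.9-fold lower (11.8 to 186), while in other epithelial barcodes it stood at 13.0 CPM (Villin-Cre) and 3.81 CPM (control). Il12a, the alpha subunit of interleukin-12, had 5 UMIs in 2 Villin-Cre barcodes and 43 UMIs in 17 control barcodes, 23.2-fold lower, and was at 0.0370 CPM (Villin-Cre) and 0 CPM (control) in other epithelial barcodes. Baiap3, a C2-domain protein of dense-core vesicle traffic, had 5 UMIs in 5 Villin-Cre barcodes and 25 UMIs in 18 control barcodes, 13.5-fold lower (5.07 to 45.1). Acvrl1, a receptor of the TGF-beta family, had 4 UMIs in 4 Villin-Cre barcodes and 21 UMIs in 15 control barcodes, Ambp, a precursor of plasma proteins, 9 UMIs in 9 Villin-Cre barcodes and 43 UMIs in 19 control barcodes, and Agr3 6 UMIs in 6 Villin-Cre barcodes and 39 UMIs in 20 control barcodes. These genes were found in few Villin-Cre barcodes, and Lmo1, Agr3 and Psat1 also set members apart from other enteroendocrine cells. Mptx1, a mucosal pentraxin of goblet cells, had no UMI in Villin-Cre barcodes and 104 UMIs in 24 control barcodes, at least 93.5-fold lower, with 75% of the control UMIs in 1 barcode and 7.59 CPM (Villin-Cre) and 102 CPM (control) in T or NK barcodes. S100g, a calcium-binding protein of absorptive cells, had 5 UMIs in 4 Villin-Cre barcodes and 44 UMIs in 23 control barcodes, and 0 CPM (Villin-Cre) and 118 CPM (control) in T or NK barcodes. Klk1, Selenbp1 and Sult1d1 were likewise higher in control T or NK barcodes, at 22.8 CPM (Villin-Cre) and 125 CPM (control), at 11.4 CPM (Villin-Cre) and 47.0 CPM (control), and at 0 CPM (Villin-Cre) and 54.8 CPM (control). Tmem252 and Pnmal2 completed the 15 lowest with Pax4 and Iapp.

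The genotype ratios were also compared with those of other epithelial barcodes of the same libraries. Of the 361 genes higher under 8000 UMIs, 286 had a ratio of the same sign there, 84 of them past 2-fold, and 75 had the opposite sign. Of the 206 lower genes, 168 had the same sign, 56 of them past 2-fold, and 37 had the opposite sign. Most of the genes thus kept their sign there without passing 2-fold. They were picked by their ratios in the smaller sums of members, so these counts do not show differences particular to members. Subtracting the log2 ratio in other epithelial barcodes from that in members under 8000 UMIs left 6.02 for Slc39a8, 5.41 for Scg2, 4.49 for Abcc3, 4.39 for Kcnk3, 3.79 for Sema3c, a secreted semaphorin, and 3.75 for Prlr as the highest differences. The lowest were -6.38 for Lmo1, -4.36 for Il12a, -3.87 for Psat1 and -3.83 for Pax4. These differences were not tested, and those of genes with no UMI in 1 library depend on the pseudocount.

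**Figure D4:**
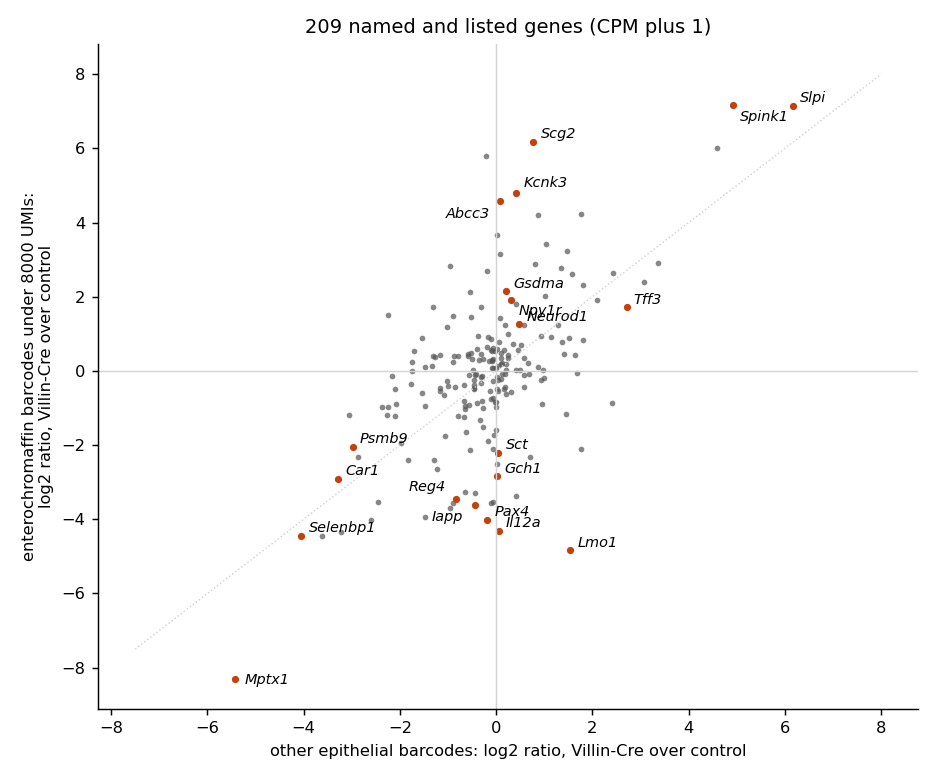
log2 ratio of Villin-Cre over control (CPM plus 1) in enterochromaffin barcodes under 8000 UMIs (vertical) against other epithelial barcodes (horizontal) for 209 named and listed genes, with a dotted line where both are equal. Spink1, Slpi, Mptx1 and Car1 lie toward the line, while Kcnk3, Abcc3, Gch1, Pax4 and Il12a are far from 0 on the vertical axis and near 0 on the horizontal. Scg2 had no control and Mptx1 no Villin-Cre UMI, so their height depends on the pseudocount.

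Interferon and antigen presentation genes that passed 2-fold were all lower in Villin-Cre members. Of 14 compared under 8000 UMIs none was at least 2-fold higher and 6 were lower (among them Bst2, Psmb8, Psmb9, B2m and Cd74, which serve the interferon response, antigen processing and presentation), with a median log2 ratio of -0.96, beside -1.96 for the same genes in other epithelial barcodes. Over all members 7 of 14 were lower. The median was thus nearer 0 in members than in the rest of the epithelium. B2m, the light chain of MHC class I, stood at 118 CPM in Villin-Cre and 274 CPM in control barcodes, 2.31-fold lower (1.73 to 3.09). Psmb9, an immunoproteasome subunit, had 13 UMIs in 12 Villin-Cre barcodes and 21 UMIs in 18 control barcodes, 4.36-fold lower (2.08 to 9.47). In T or NK barcodes B2m stood at 1335 CPM (Villin-Cre) and 1449 CPM (control).

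Cell cycle genes were low in both libraries under 8000 UMIs. Over all members 11 of 12 compared were at least 2-fold lower in Villin-Cre, but under 8000 UMIs 3 could be compared, of which Ube2c and Stmn1 were lower. Their sums in members under 8000 UMIs, given above, compare with 1920 CPM (Villin-Cre) and 1907 CPM (control) in other epithelial barcodes. Mki67, a marker of cycling cells, had 10 UMIs in 7 Villin-Cre barcodes and 10 UMIs in 9 control barcodes, or 11.2 CPM (Villin-Cre) and 30.1 CPM (control). Of 18 immediate early genes, Egr1, Hspa1a and Hspa1b were higher and Ier3 lower, with a median log2 ratio of 0.31, beside -1.03 in other epithelial barcodes. Hspa1a, an inducible heat shock protein, stood at 481 CPM in Villin-Cre and 108 CPM in control barcodes. Of 17 endoplasmic reticulum folding and stress genes, Pdia4 was higher, at 135 CPM (Villin-Cre) and 57.1 CPM (control), and none was lower.

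Genes of position along the colon passed 2-fold in both directions, beside 9.99% of all genes higher and 5.7% lower under 8000 UMIs. Of 12 compared under 8000 UMIs, Hoxa9 was higher at 84.8 CPM in Villin-Cre and 30.1 CPM in control barcodes, and Hoxb6 and Cdx1 were lower, at 24.5 CPM (Villin-Cre) and 72.2 CPM (control) for Hoxb6 and 24.5 CPM (Villin-Cre) and 84.2 CPM (control) for Cdx1. Hoxb13, a homeobox gene of the distal colon, had 94 UMIs in 39 Villin-Cre barcodes and 23 UMIs in 11 control barcodes. Of the 16 stem cell genes 1 could be compared and did not pass 2-fold, and Lgr5, the marker of crypt stem cells, had no UMI in members under 8000 UMIs. Of the 9 genes of the m6A methyltransferase complex 1 could be compared and did not pass 2-fold.

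Within the members, the levels of Sct, Reg4 and a few other genes differed in the same direction in both libraries between barcodes with and without Tac1. Members under 8000 UMIs were split after thinning into 91 Villin-Cre and 61 control barcodes with a Tac1 UMI, and 104 Villin-Cre and 15 control barcodes without. Of 902 genes compared, 467 had the same sign in both libraries, which is near an even split. Sct, Reg4, S100a6, Phgr1 and Lypd8 were among the highest and lowest of those 467. The genes below were picked after their values were seen, and each comparison is a description. Sct was lower in barcodes with Tac1, at 681 CPM with and 2269 CPM without Tac1 in the Villin-Cre library, and 3525 CPM with and 25767 CPM without in the control library. Shares with an Sct UMI were 39.6% of barcodes with and 41.3% without a Tac1 UMI in the Villin-Cre library and 44.3% of barcodes with and 66.7% without a Tac1 UMI in the control library. In the Villin-Cre library 1 barcode without Tac1 held 47.2% of the Sct UMIs of that group, and without it the group stood at 1209 CPM. S100a6, a calcium-binding protein, stood at 857 CPM with and 3894 CPM without Tac1 in the Villin-Cre library, and 2131 CPM with and 4800 CPM without in the control library. Phgr1, a gene of differentiated surface epithelium, stood at 203 CPM with and 731 CPM without Tac1 in the Villin-Cre library, and 467 CPM with and 1900 CPM without in the control library, and Lypd8, an antibacterial surface protein of colonocytes, at 65.9 CPM with and 154 CPM without Tac1 in the Villin-Cre library, and 238 CPM with and 533 CPM without in the control library. A single barcode held 43.8% of the Lypd8 UMIs of the control barcodes without Tac1, which stood at 321 CPM without it.

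Reg4 went with Tac1, at 192 CPM with and 115 CPM without Tac1 in the Villin-Cre library, and 2074 CPM with and 200 CPM without in the control library. Without the barcode richest in Reg4, the barcodes without Tac1 stood at 68.0 CPM in the Villin-Cre and 71.4 CPM in the control library. A Reg4 UMI was found in 24.2% (15.8 to 34.3) of the barcodes with and 8.65% (4.03 to 15.8) of those without a Tac1 UMI in the Villin-Cre library, and in 41.0% (28.6 to 54.3) of the barcodes with and 20% (4.33 to 48.1) of those without a Tac1 UMI in the control library. Piezo2 went against Tac1 in the Villin-Cre library, with 12.1% (6.19 to 20.6) of the barcodes with and 29.8% (21.2 to 39.6) of those without a Tac1 UMI. In the control library 6 of 61 barcodes with and 1 of 15 without had Piezo2, too few to compare. Fev was found in 20.9% (13.1 to 30.7) of the barcodes with and 17.3% (10.6 to 26.0) of those without a Tac1 UMI in the Villin-Cre library and in 41.0% (28.6 to 54.3) of the barcodes with and 13.3% (1.66 to 40.5) of those without a Tac1 UMI in the control library. Neurod1 was found in 82.4% of barcodes with and 83.7% without a Tac1 UMI in the Villin-Cre library, and in 55.7% of barcodes with and 80% without a Tac1 UMI in the control library.

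**Figure D5:**
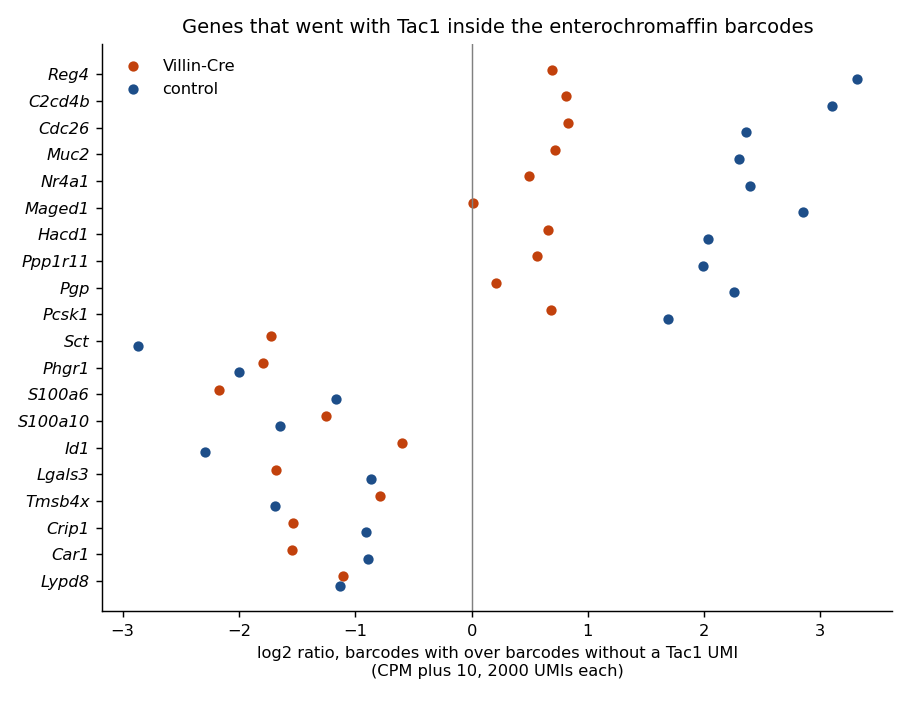
log2 ratio (CPM plus 10) of members with a Tac1 UMI over members without, after thinning to 2000 UMIs, for the 10 genes with the highest and the 10 with the lowest mean ratio of the same sign, in the Villin-Cre library (orange) and the control library (blue). Sct lies at -1.72 in Villin-Cre and -2.87 in control, and Reg4 at 0.69 in Villin-Cre and 3.31 in control.

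The promoters of Tac1 and Sct are shown because Sct levels were lower in members with a Tac1 UMI. Neurod1, whose product binds E-boxes, also differed between libraries. RefSeq windows (GRCm38.p6) run from 250 bases before to 50 after the start, and capitals mark the letters CAGATG, an E-box of the NEUROD and NEUROG factors, searched on both strands as CAGATG and CATCTG. The Tac1 window is chr6:7554811-7555110 on the plus strand, and the Sct window chr7:141279084-141279383 on the minus strand.
Tac1: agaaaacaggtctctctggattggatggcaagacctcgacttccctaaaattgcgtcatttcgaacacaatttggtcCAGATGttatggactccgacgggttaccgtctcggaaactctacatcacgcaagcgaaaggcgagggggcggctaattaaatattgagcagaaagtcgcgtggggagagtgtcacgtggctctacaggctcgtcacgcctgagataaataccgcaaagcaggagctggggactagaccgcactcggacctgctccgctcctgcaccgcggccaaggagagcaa
Sct: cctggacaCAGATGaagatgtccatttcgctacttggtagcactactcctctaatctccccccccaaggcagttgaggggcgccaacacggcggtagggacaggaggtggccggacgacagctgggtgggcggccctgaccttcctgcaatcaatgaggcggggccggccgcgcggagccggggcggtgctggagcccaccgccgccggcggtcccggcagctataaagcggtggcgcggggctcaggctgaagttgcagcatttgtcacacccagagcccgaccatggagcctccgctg
Windows of 10 genes were searched, and Tac1 and Sct were the 2 genes with a match. Each of these held 1, and 17.2% of 32851 promoters of this length held at least 1. Neither of the 2 Tph1 windows, from separate starts at chr7:46672488-46672787 and chr7:46667328-46667627, held these letters, and no window of Chga, Chgb, Neurod1, Ddc, Fev, Lmx1a or Gch1 held them. A match describes the letters of the window and not binding.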

How the data were processed

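The data were droplet single-cell RNA libraries of colonic crypt cells, 1 per genotype. The deposited values are raw UMI counts for each gene in each called cell. They came from Cell Ranger, whose version is 3.1.0 per the file headers. The submitters' processing notes list 3.0.0 instead, along with Seurat 3. The genome build and annotation behind the counts are not named in the labels or headers, and 99.6% of the 31053 gene IDs were matched to GENCODE M21 (GRCm38) for coordinates. The members, gene lists and limits were chosen with earlier results of these data known.

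Barcodes with under 500 genes or at least 25% mitochondrial UMIs were left out. Enteroendocrine barcodes passed the part of the rule on Chga, Chgb, Pcsk1n and Scgn, and those with no Tph1 or Tac1 UMI were the other enteroendocrine cells. Epithelial barcodes had at least 5 UMIs of Epcam, Krt8, Krt18, Krt19 and Cldn7 and were not immune. T or NK barcodes had at least 5 UMIs and 0.5% of UMIs of T or NK markers, a Ptprc UMI and no Epcam UMI. No doublet was removed, and a Scrublet score of at least 0.25 was used as an alternative.

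UMIs were summed per class and library and scaled to CPM, with exact Poisson intervals, exact (Clopper-Pearson) binomial intervals for shares and exact conditional intervals for folds, all at 95% and for counting error only. With 1 library per genotype there was no test, and called means past the fold on log2(CPM + 1). Genes needed 20 UMIs and 50 CPM in at least 1 of the sums compared, and a fold against no UMI is a bound from a floor of 3 UMIs per library. Mitochondrial, ribosomal protein, haemoglobin, immunoglobulin and T cell receptor genes, Xist, Tsix, Y-linked genes, the 6 genes of the rule and genes over 5 times higher in immune than in other epithelial barcodes were not counted. Named genes were the listed genes, the 15 highest and 15 lowest between genotypes, the 15 highest and 10 lowest over other enteroendocrine barcodes, the 15 highest over other epithelial barcodes and the 8 highest and 8 lowest differences of ratios, over all members and again under 8000 UMIs. The ratio step was checked on simulated counts. Software was Python 3.11.15 with numpy 2.4.6, scipy 1.17.1, pandas 2.3.3, scanpy 1.11.5, anndata 0.12.19 and matplotlib 3.10.9. A few genes of the lists are counted but not reported here by name.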

Additional observations from a re-analysis of the deposited data

How the results depend on the processing

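The difference in the enterochromaffin share of epithelial barcodes, Villin-Cre minus control, was 3.11 percentage points, and 3.87 with limits of 1000 genes and 15% mitochondrial UMIs. The difference in their share of enteroendocrine barcodes, 1.39 points, ran between 1.18 and 6.18 under the alternatives. Genes at least 4-fold higher in members than in other enteroendocrine barcodes numbered 24, against 44 after thinning to 2000 UMIs, 7 with a pseudocount of 10 CPM, 48 at a minimum of 20 CPM, 12 at 100 CPM, 41 with the mean over cells and 49 without the members of at least 8000 UMIs. Those at least 4-fold lower numbered 30, and 15 with the pseudocount of 10 CPM. Between genotypes the 363 higher genes were 836 at 20 CPM and 143 at 100 CPM, and the 188 lower genes were 402 at 20 CPM and 107 at 100 CPM. Centring on the median gene gave 292 higher and 229 lower genes.

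Of 1116 values of named genes and lists recomputed, 877 stayed within counting error (lists: within the spread of their genes), 233 moved further, and 6 changed sign. The 877 include 86 values of named genes at 20 CPM and 86 at 100 CPM that could not change. Those minimum levels choose which genes are counted and do not enter the ratio of a gene. After thinning, the log2 ratio over other enteroendocrine barcodes was -0.81 for Retnlb and -0.56 for Tpsg1, and the difference of genotype ratios between members and other epithelial barcodes was -0.72 for Sst and -5.01 for Gcg. For Insl5 that difference was 2.46 with Tph1 alone in the rule and 2.25 without the members of at least 8000 UMIs. The cause was not tested, but Sst and Insl5 rest on 1 to 3 barcodes. No paired analysis was possible because each genotype had 1 library, which also left no replicate to leave out. The limit at 8000 UMIs was added after seeing the data. Depth limits genes of few UMIs, whose folds have wide intervals, and both pools may differ in ways that counting intervals do not cover.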

Other observations

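Tac1 UMIs were also found outside the enteroendocrine barcodes, where they did not go with Tph1. In other epithelial barcodes Tac1 had 164 UMIs and Tph1 89 UMIs in the Villin-Cre library, and Tac1 had 655 UMIs and Tph1 97 UMIs in the control library. That is 1.84 Tac1 UMIs per Tph1 UMI in Villin-Cre and 6.75 in control barcodes, against 0.159 in Villin-Cre and 0.282 in control enterochromaffin barcodes. The ratio was thus higher outside enterochromaffin barcodes in both libraries.

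Tac1 in these barcodes went with Hoxb13, a homeobox gene of the distal colon. A Tac1 UMI was found in 6.91% of Villin-Cre other epithelial barcodes with a Hoxb13 UMI and 0.824% of those without. In the control library the shares were 14.2% with and 2.12% without. After thinning to 2000 UMIs, with Hoxb13 read before thinning, the shares were 0.898% with and 0.0978% without in Villin-Cre, and 3.01% with and 0.463% without in control barcodes. Of the barcodes with at least 2 Tac1 UMIs, 19 of 26 in the Villin-Cre and 96 of 112 in the control library had a Hoxb13 UMI. No Tac1 UMI was found in 94 Villin-Cre and 62 control T or NK barcodes, which were shallower. Hoxb13 was chosen after the values were seen, and these values are a description.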
